A study of Mus musculus with 4 samples.

Results

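The genes described are the 10 nuclear genes of respiratory complex III and cytochrome c: *Uqcrfs1*, *Cyc1*, *Uqcrc1*, *Uqcrc2*, *Uqcrb*, *Uqcrh*, *Uqcrq*, *Uqcr10* and *Uqcr11*, which encode subunits of the complex, and *Cycs*, which encodes cytochrome c. They were picked by name from the 29300 genes of the deposited count table. All 10 had counts in every mouse, from 284 to 5664, and all 10 were among the 17144 genes that passed the expression filter and were tested. Hippocampal RNA of 4 male C57BL/6 mice aged 7 to 8 months was sequenced, 2 mice per group, in a model of perioperative neurocognitive disorder (PND). Control mice were sham animals that received isoflurane anesthesia and tramadol analgesia without a fracture. Surgery mice received the same anesthetic and analgesic and then an open fracture of the tibia fixed by intramedullary nailing. All hippocampi were taken on day 1 after the operation, so the comparison asks how the fracture, on top of anesthesia, was reflected in hippocampal transcripts at that time. There was no group without anesthesia among these libraries.

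Complex III, or ubiquinol-cytochrome c oxidoreductase, sits in the inner mitochondrial membrane and takes electrons from reduced ubiquinone, which complex I, complex II and several other dehydrogenases supply. Through the Q cycle it passes these electrons by way of the Rieske iron-sulfur protein and cytochrome c1 to cytochrome c, and it moves protons across the membrane as it does so. Cytochrome c is a small soluble haem protein that carries the electrons on to complex IV, and outside the mitochondrion it takes part in the activation of caspases. Cytochrome b is the only subunit of the complex that the mitochondrial genome encodes, so assembly draws on transcripts of both genomes. Neurons of the hippocampus depend strongly on this chain for the ATP that ion pumping and synaptic transmission use.

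Nuclear respiratory factors are known regulators of such genes, and the upstream sequences of 4 of them are shown here because *Uqcr10* and *Uqcr11* had the lowest fold changes of the 10 genes and *Cycs*, *Uqcr11* and *Uqcrh* hold a searched motif. Each sequence is the 250 bases before the RefSeq transcription start (GRCm38.p6, minus strand of the chromosome, printed 5′ to 3′ in the direction of the gene), and capitals mark the motif. The intervals are chr6:50566570-50566819 for *Cycs*, chr10:80406822-80407071 for *Uqcr11*, chr4:116075071-116075320 for *Uqcrh* and chr11:4704345-4704594 for *Uqcr10*.
Cycs: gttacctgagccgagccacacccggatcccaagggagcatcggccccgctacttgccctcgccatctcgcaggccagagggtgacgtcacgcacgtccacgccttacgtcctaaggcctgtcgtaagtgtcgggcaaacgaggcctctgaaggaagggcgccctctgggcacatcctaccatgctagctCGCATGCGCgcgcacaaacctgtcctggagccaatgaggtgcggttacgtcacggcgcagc
Uqcr11: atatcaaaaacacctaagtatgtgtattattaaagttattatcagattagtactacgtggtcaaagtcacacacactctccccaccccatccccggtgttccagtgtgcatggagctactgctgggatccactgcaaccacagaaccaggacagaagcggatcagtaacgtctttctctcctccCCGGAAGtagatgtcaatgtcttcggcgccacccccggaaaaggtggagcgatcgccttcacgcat
Uqcrh: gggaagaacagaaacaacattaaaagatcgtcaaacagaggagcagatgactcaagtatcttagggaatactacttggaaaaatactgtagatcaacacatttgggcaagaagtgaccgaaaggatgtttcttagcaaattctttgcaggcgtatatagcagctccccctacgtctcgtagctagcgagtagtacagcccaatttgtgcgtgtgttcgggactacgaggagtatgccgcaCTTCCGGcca
Uqcr10: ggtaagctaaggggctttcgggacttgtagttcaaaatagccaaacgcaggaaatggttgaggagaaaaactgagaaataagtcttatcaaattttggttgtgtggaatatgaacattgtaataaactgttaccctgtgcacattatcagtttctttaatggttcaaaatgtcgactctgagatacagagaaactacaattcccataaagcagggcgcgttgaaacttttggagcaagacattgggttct

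Both strands were searched for the NRF-1 core GCGCANGCG, the GABP (NRF-2) core CCGGAAG and the YY1 core AAGATGGCG, and no match overlapped another. The RefSeq table held a promoter for 6 of the 10 genes, the 4 above with *Uqcrfs1* and *Uqcrc1*. *Cyc1*, *Uqcrc2*, *Uqcrb* and *Uqcrq* were not matched. The NRF-1 core occurred in *Cycs* alone, from position -61 on the minus strand of the printed sequence, and in 5.16% of all 32851 promoters. The GABP core occurred in *Uqcr11* from position -66 on the plus strand and in *Uqcrh* from position -10 on the minus strand, and in 6.91% of all promoters. The YY1 core, present in 0.606% of all promoters, was in none of the 6. The GC content of these upstream sequences was 64.0% for *Cycs*, 49.6% for *Uqcr11*, 45.6% for *Uqcrh* and 38.8% for *Uqcr10*, where the median of all promoters was 52.4%. Motif letters were therefore present in one gene that stood lower in surgery mice and passed the test, in another that stood lower without passing, and in *Cycs*, which stood higher without passing.

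The 4 libraries held between 15763432 and 18573386 counts, and levels are given as CPM, the counts scaled by TMM and by library total. Groups were compared by the quasi-likelihood test of edgeR, and the adjusted p-values below are from this test, with Benjamini-Hochberg adjustment across all genes tested. A gene was a differentially expressed gene (DEG) where its fold change was also 1.5 or more, or 0.67 or less. With only 2 mice in each group, the test borrows its estimate of spread from many genes, and an exact permutation test of a single value could not go below p = 0.333. All 6 marker genes of hippocampal subfields were detected in every mouse, and in surgery mice 1 of them (*Wfs1*) was lower and 2 (*Neurod6* and *Zbtb20*) were higher. The libraries differed in other cell types. The summed level of 6 choroid plexus markers was 128 CPM in control mouse 1 and 5435 CPM in control mouse 2, beside 2037 and 3452 CPM in the surgery mice. That of 6 oligodendrocyte markers was 6183, 5329 and 6084 CPM and only 3927 CPM in surgery mouse 2. The sums of 8 neuronal markers overlapped between the groups (6972 and 6823 CPM in control mice, 6891 and 6607 CPM in surgery mice), with 2 of the markers lower (*Tubb3* and *Slc17a7*) and 2 higher (*Map2* and *Gad2*). The sum of 6 astrocyte markers was 3557 and 3305 CPM in control mice and 4105 and 3883 CPM in surgery mice, with 1 marker lower (*Aldh1l1*) and 3 higher (*Aqp4*, *Gja1* and *Slc1a2*), and *Slc1a2* made up most of it (2276 and 2154 CPM in control mice, 2780.4 and 2625 CPM in surgery mice). The 6 endothelial markers summed to 213 and 225 CPM in control mice and to 233 and 316 CPM in surgery mice, with 2 higher (*Flt1* and *Slco1a4*) and 0 lower. The sums of 6 microglial markers overlapped (256 and 248 CPM, then 246 and 254 CPM), with 1 higher (*P2ry12*). Neutrophil markers summed to 8.82 and 14.3 CPM in control mice and to 2.07 and 9.18 CPM in surgery mice, with *Ltf* lower among 4 tested, and 0 of 3 red blood cell markers tested passed. Of all genes tested, 12.8% were lower and 13.1% were higher. With the length and GC offset described below, *Map2* was the only one of these markers that passed (log2 fold change 0.47, adjusted p = 0.025). *Slc17a7* and *Gad2* moved to -0.04 and 0.07. In whole tissue, fewer cells of a type and less RNA per cell cannot be told apart, and the part of these marker differences in the results below was not tested.

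In surgery mice, 5 of the 10 genes were lower than in control mice. *Uqcr11* and *Uqcr10*, which encode the smallest subunits, fell the most, to 0.578 and 0.626 of the control level, and *Uqcrq*, *Uqcrc1* and *Cyc1* fell to between 0.736 and 0.756. *Uqcrh*, *Uqcrfs1*, *Uqcrc2*, *Uqcrb* and *Cycs* did not pass the test. Across the table, 12.8% of the genes tested were lower at an adjusted p-value under 0.05 and 13.1% were higher. The higher share was 6.72% without control mouse 2. None of the 10 genes was higher by edgeR, where 0 also had an unadjusted p-value under 0.05 with a rise, and DESeq2 and limma-voom each called 0. *Uqcr10* and *Uqcr11* were lower DEGs, as were 2.25% of all genes tested. That share was 1.42% without control mouse 2, 1.51% without surgery mouse 2 and 3.43% without surgery mouse 1. When libraries were scaled by their totals alone, 2 of the 10 genes and 1.31% of all genes were lower DEGs, and lower genes made up 14.0% of all DEGs in place of 25%. Both surgery mice lay below both control mice for 7 of the 10 genes, against 32.2% of all genes, and above them for 2, against 33.2%. The 10 genes had a median log2 fold change of -0.31, beside 0.01 over all genes tested, and their standard errors ran from 0.06 to 0.12. In 1 alternative fit none of these calls remained. When trends of the counts in each library with the length and GC content of transcripts were removed (the length and GC offset), 0 of the 10 genes passed by edgeR, 4 had an unadjusted p-value under 0.05, and 0.595% of all genes were lower and 0.945% higher. All 10 fitted log2 fold changes were then negative, from -0.48 to -0.09, where the median over all genes was 0.04.

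**Figure D1:**
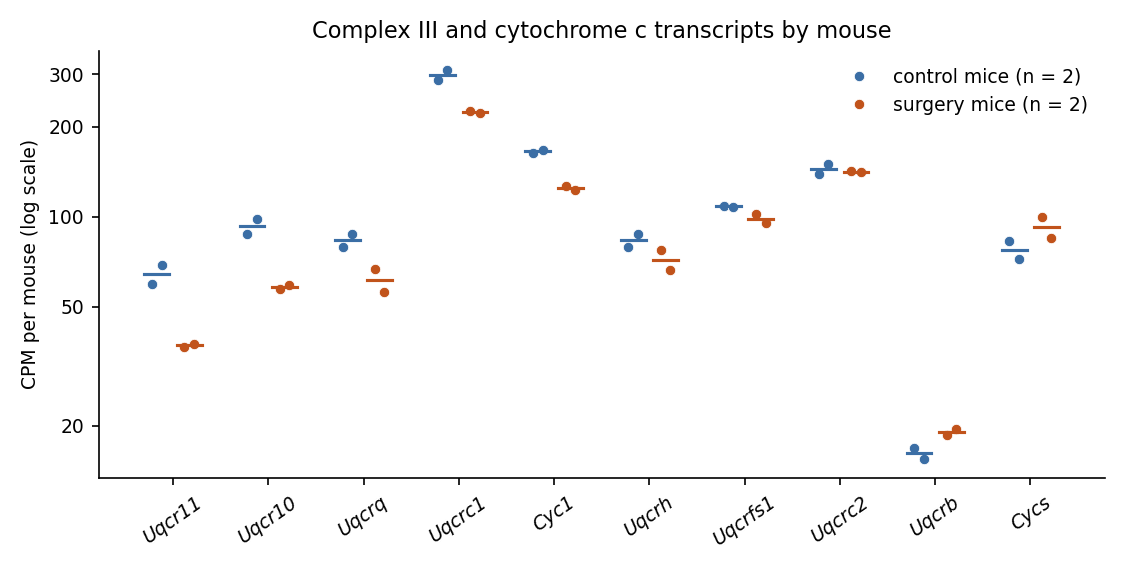
CPM of the 10 genes in each mouse on a log axis, with control mice in blue and surgery mice in orange; points are single mice and bars the means of 2 mice. Both surgery mice lie below both control mice for 7 genes and above them for *Uqcrb* and *Cycs*, and the groups overlap for *Uqcrc2*.

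Among the subunits that carry electrons, *Cyc1* was lower in surgery mice and *Uqcrfs1* did not pass the test. *Cyc1* (ENSMUSG00000022551, mm10 chr15:76343523-76345934, plus strand) encodes cytochrome c1, the haem subunit that hands electrons to cytochrome c. It stood at 164 and 168 CPM in the control mice and at 127 and 123 CPM in the surgery mice. The groups did not overlap, and each pair of mice lay close together. On the log2 scale the change was -0.40 ± 0.06 (SE), with a 95% interval from -0.55 to -0.26 and an adjusted p of 0.0066. With the length and GC offset it was -0.13 (adjusted p = 0.24). *Uqcrfs1* (ENSMUSG00000038462, chr13:30540308-30545362, minus strand) encodes the Rieske protein, whose iron-sulfur cluster receives the electron from ubiquinol. Its levels were 109 and 108 CPM in control mice and 102 and 95.2 CPM in surgery mice, so both surgery mice were below both control mice by a small margin. The log2 fold change of -0.13 ± 0.07 had an interval from -0.30 to 0.03 and an adjusted p of 0.19, and with the offset it was -0.14 (adjusted p = 0.24). It was -0.20 without surgery mouse 1 and -0.08 without surgery mouse 2.

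Cytochrome b, the partner of these subunits that the mitochondrial genome encodes, went the other way without the length and GC offset. *mt-Cytb*, which is not one of the 10 genes, stood at 5625 and 5236 CPM in control mice and at 7274 and 7141 CPM in surgery mice. Its log2 fold change was 0.41 ± 0.07 (adjusted p = 0.0097), higher in both surgery mice than in both control mice. With the length and GC offset the direction turned, to -0.17 (adjusted p = 0.20). Its transcript has a GC content of 39.1%.

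The core proteins had different fold changes without the length and GC offset, though the difference between them was not tested. *Uqcrc1* and *Uqcrc2* encode the large subunits on the matrix side, relatives of the peptidase that removes mitochondrial presequences, and only *Uqcrc1* passed the test. *Uqcrc1* (ENSMUSG00000025651, chr9:108936633-108949623, plus strand), the most abundant of the 10 genes in CPM, stood at 288 and 309.9 CPM in control mice and at 227 and 223 CPM in surgery mice. The surgery mice were well below the control mice, and the difference exceeded the spread of either pair. This gave a log2 fold change of -0.41 ± 0.06 (95% interval -0.56 to -0.26, adjusted p = 0.0069). With the offset it was -0.09 (adjusted p = 0.41), the smallest of the 10. *Uqcrc2* (ENSMUSG00000030884, chr7:120635176-120659524, plus strand) stood at 139 and 149.8 CPM in control mice and at 142 and 141 CPM in surgery mice. Here the surgery mice lay between the control mice. The log2 fold change of -0.03 ± 0.07 had an interval from -0.19 to 0.13 (adjusted p = 0.79). Its sign turned to 0.02 when libraries were scaled by their totals or when control mouse 2 was left out, and with the length and GC offset it was -0.25 (adjusted p = 0.11). Of the exon bases of *Uqcrc2*, 504 (19.7%) are also exon of *Pdzd9* on the other strand, which was counted 4 to 9 times per mouse. The sources used here do not say whether counting used strand.

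The small subunits around this core ranged from the strongest fall among the 10 genes to a fitted rise that did not pass the test. *Uqcr11* (ENSMUSG00000020163, chr10:80402997-80406830, minus strand), which encodes the smallest of them, stood at 59.7 and 68.8 CPM in control mice and at 36.6 and 37.6 CPM in surgery mice. No other gene of the 10 had a larger change on the log2 scale. Its log2 fold change was -0.79 ± 0.09 (95% interval -1.02 to -0.57, adjusted p = 0.0047). *Uqcr10* (ENSMUSG00000059534, chr11:4701973-4704342, minus strand), a single-pass membrane subunit near the Rieske protein and cytochrome c1, stood at 87.9 and 98.3 CPM in control mice and at 57.5 and 59.0 CPM in surgery mice. Again both surgery mice were far below both control mice, with a log2 fold change of -0.68 ± 0.08 (95% interval -0.87 to -0.48, adjusted p = 0.0047). With the offset both calls were lost, at -0.48 ± 0.09 for *Uqcr11* (adjusted p = 0.062) and -0.46 ± 0.08 for *Uqcr10* (adjusted p = 0.055).

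*Uqcrq* (ENSMUSG00000044894, chr11:53427922-53430831, minus strand), which encodes a subunit that contacts cytochrome b, stood at 79.5 and 87.5 CPM in control mice and at 66.8 and 56.2 CPM in surgery mice. The groups did not overlap, but the surgery mice differed from each other more than for *Uqcr10* or *Uqcr11*. The fitted change was -0.44 ± 0.10 on the log2 scale (adjusted p = 0.024). The call was lost without control mouse 2 (-0.38, adjusted p = 0.083), without surgery mouse 2 (-0.32, adjusted p = 0.075), without a filter on low counts (-0.45, adjusted p = 0.07) and with the offset (-0.37, adjusted p = 0.096). *Uqcrh* (ENSMUSG00000063882, chr4:116066965-116075071, minus strand) encodes the acidic hinge protein that helps cytochrome c1 to meet cytochrome c. It stood at 79.2 and 87.9 CPM in control mice and at 77.3 and 66.4 CPM in surgery mice, with surgery mouse 1 just below control mouse 1. The log2 fold change of -0.22 ± 0.10 (95% interval -0.45 to 0.02) did not pass (adjusted p = 0.15). It ranged from -0.35 without surgery mouse 1 (adjusted p = 0.049) through -0.15 without control mouse 2 (adjusted p = 0.44) to -0.11 without surgery mouse 2 (adjusted p = 0.54).

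*Uqcrb* (ENSMUSG00000021520, chr13:66900617-66905378, minus strand) encodes a subunit at the ubiquinone-binding region and had the lowest level of the 10 genes. It stood at 16.8 and 15.5 CPM in control mice and at 18.6 and 19.4 CPM in surgery mice. Both surgery mice were above both control mice. The log2 fold change of 0.23 ± 0.12 (95% interval -0.05 to 0.51) did not pass the test (adjusted p = 0.19), and with the length and GC offset it turned to -0.16 (adjusted p = 0.45). Its level is uncertain, since 16.7% of the 75 nt windows of its transcripts also occur in processed pseudogenes, among them *Gm16089* (9.99% of the windows) and *Gm2962* (5.24%). These were counted 3 to 16 times per mouse, beside 284 to 327 counts of *Uqcrb*. In addition, 50 of its exon bases (5.7%) are also exon of *Gm10767* on the other strand, which was counted 51 to 59 times per mouse.

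Cytochrome c itself did not follow cytochrome c1 without the length and GC offset. *Cycs* (ENSMUSG00000063694, chr6:50562563-50566538, minus strand) stood at 82.7 and 72.2 CPM in control mice and at 100 and 84.8 CPM in surgery mice. The surgery mice were above the control mice, but surgery mouse 2 exceeded control mouse 1 only narrowly. The fitted change was 0.26 ± 0.11, on the log2 scale, with an interval from 0.00 to 0.51 and an adjusted p of 0.13. Without surgery mouse 1 it was 0.12 (adjusted p = 0.48), without surgery mouse 2 it was 0.38 and passed (adjusted p = 0.04), and with the length and GC offset it turned to -0.19 (adjusted p = 0.35). *Cycs* transcripts share 23.9% of their 75 nt windows with other genes, mostly with *Gm10053* (127 and 102 counts in control mice, 89 and 76 in surgery mice) and to a lesser extent with *Gm10108* (6.04%) and *Gm13772* (5.02%). How reads that match both *Cycs* and such a copy were assigned is not given in the sources used here.

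**Figure D2:**
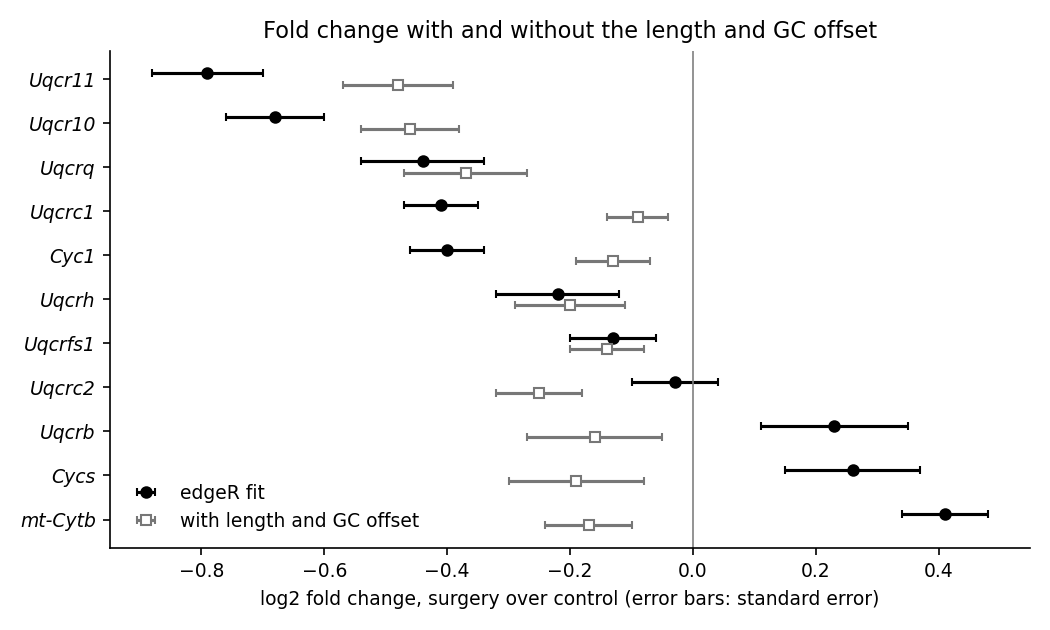
Log2 fold change of surgery over control mice for the 10 genes and *mt-Cytb*, with standard errors, from the edgeR fit (filled circles) and with the length and GC offset (open squares). Before the offset the 10 genes spread from -0.79 to 0.26, and with it from -0.48 to -0.09, all on the negative side.

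The spread among the 10 genes followed the base composition of their transcripts. The GC content of the longest coding transcript ran from 40.8% in *Cycs* to 58.9% in *Uqcr11*, with a median of 50% beside 49.9% for all genes. Across the 10 genes Spearman's rho between GC content and log2 fold change was -0.90, and across all 17120 tested genes with a GC content it was -0.65. Both are descriptions, since the genes share the same 4 libraries. The 5 genes that passed the test had GC contents of 58.9% (*Uqcr11*), 57.5% (*Uqcrc1*), 55.7% (*Cyc1*), 55.5% (*Uqcr10*) and 50.2% (*Uqcrq*), which are the highest among the 10. *Uqcrh* (49.9%), *Uqcrfs1* (48.6%), *Uqcrc2* (44.4%), *Uqcrb* (42.2%) and *Cycs* (40.8%) followed in the same order as their fold changes. Transcripts of the 10 genes were also short, with a median of 1442 nt beside 2977 nt for all genes.

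The same trend held in the rest of the table. When the tested genes were divided into 8 equal groups by GC content, the median log2 fold change went from 0.595 in the group with the lowest GC content to -0.347 in that with the highest. All 10 genes lay below the median of their own group, a mark that by definition divides the genes of a group evenly. *Uqcr11* at -0.79 and *Uqcr10* at -0.68 stood beside medians of -0.347 and -0.253, *Uqcrq* at -0.44 beside -0.073, and *Uqcrc1* at -0.41 beside -0.347. At the other end, *Cycs* at 0.26 and *Uqcrb* at 0.23 both stood beside a median of 0.595. Between the 2 control mice the corresponding medians ran from -0.105 to 0.022, and between the 2 surgery mice from -0.041 to 0.062. The trend therefore separated the groups far more than it separated replicates, and with these 4 libraries it cannot be told apart from the effect of the operation. The offset brought the medians to -0.19 for the 10 genes and 0.04 for all genes.

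**Figure D3:**
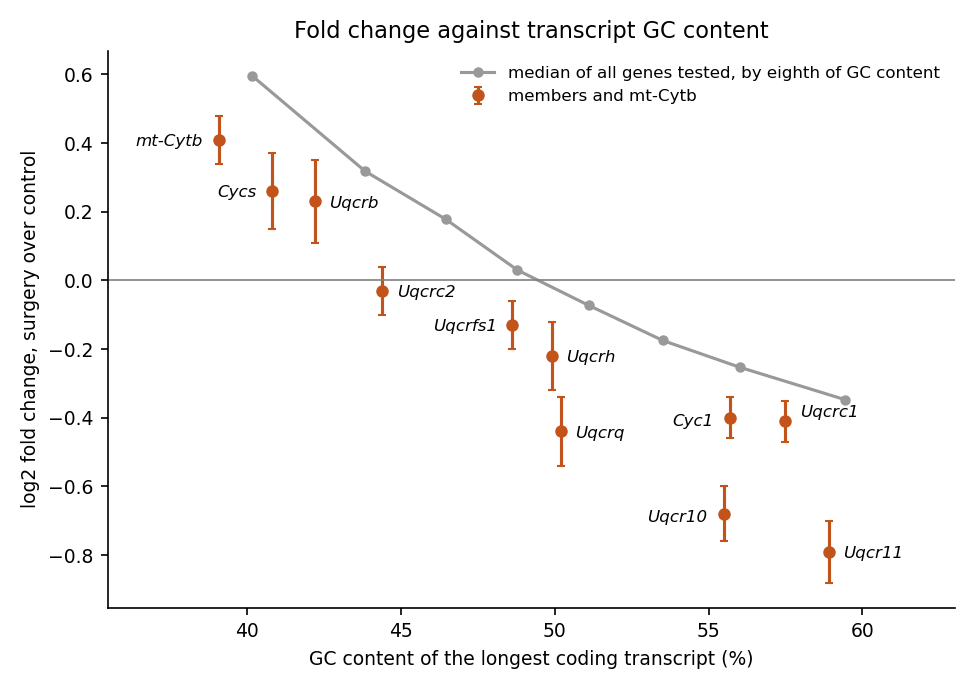
Log2 fold change of surgery over control mice, with standard error, against the GC content of the longest coding transcript for the 10 genes and *mt-Cytb* (orange), and the medians of all genes tested in 8 groups of GC content (grey line). The orange points fall with rising GC content from 0.41 for *mt-Cytb* to -0.79 for *Uqcr11* and lie below the grey line.

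Without the length and GC offset, the ratios of transcripts between subunits were separate between the groups. The 9 nuclear subunits of complex III summed to 1022 and 1093 CPM in control mice and to 855 and 821 CPM in surgery mice. The ratio of *mt-Cytb* to this sum was 5.50 and 4.79 in control mice and 8.51 and 8.70 in surgery mice. *Uqcr11* over *Uqcrb* was 3.54 and 4.43 in control mice and 1.97 and 1.94 in surgery mice. In each of these the groups were separate and the surgery mice were close together. For the core proteins, *Uqcrc1* over *Uqcrc2* was 2.07 in both control mice and 1.59 in both surgery mice. For the final transfer, *Cycs* over *Cyc1* was 0.505 and 0.431 in control mice and 0.788 and 0.687 in surgery mice. The 3 ratios between nuclear genes each set a transcript of higher GC content against one of lower GC content. With the length and GC offset, the log2 fold change of *mt-Cytb* (-0.17) lay within the range of the 10 genes (-0.48 to -0.09), near their median of -0.19. In the same fit that of *Uqcrc1* (-0.09 ± 0.05) was above that of *Uqcrc2* (-0.25 ± 0.07). Those of *Cycs* (-0.19 ± 0.11) and *Cyc1* (-0.13 ± 0.06) lay close together beside their standard errors. *Uqcr11* (-0.48) stayed below *Uqcrb* (-0.16). No ratio was computed or tested with the offset.

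Compared per kilobase of exon, the levels of the 10 genes in control mice spanned 8.59-fold. *Uqcr10* was the highest, at 159 ± 12.6 CPM per kilobase (SD, n = 2), followed by *Uqcr11* at 100.2 ± 10, *Uqcrfs1* at 79.4 ± 0.70, *Cyc1* at 76.9 ± 1.31 and *Uqcrc1* at 72.3 ± 3.75. *Uqcrh*, at 67.5 ± 4.93 CPM per kilobase, overlapped *Uqcrc1* between mice, and no other neighbours in this order overlapped. *Uqcrc2* (56.6 ± 3.03), *Uqcrq* (45.6 ± 3.07), *Cycs* (22.8 ± 2.17) and *Uqcrb* (18.5 ± 1.05) formed the lower part of the order. Levels of subunits of one complex were thus far from equal in these units. In surgery mice *Uqcr10* was the highest, at 99.7 ± 1.76 CPM per kilobase, and *Uqcr11*, at 57.9 ± 1.11, overlapped *Cyc1* (58.1 ± 1.13) and *Uqcrh* (58.1 ± 6.26). The order depends on the length used. Per kilobase of the longest coding transcript, *Uqcr10* (214), *Uqcrc1* (181), *Uqcrh* (153) and *Uqcr11* (144) led in control mice, where *Uqcrh* and *Uqcr11* overlapped between mice. In surgery mice *Uqcrc1* (136), *Uqcr10* (134), *Uqcrh* (131) and *Uqcr11* (83.4) led, and *Uqcrc1*, *Uqcr10* and *Uqcrh* overlapped between mice. *Cycs* was the lowest in both groups, at 24.8 and 29.6.

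Genes that build or feed the complex were counted in lists. Over the nuclear lists 10 of 45 genes tested were lower and 1 was higher at an adjusted p-value under 0.05, beside 12.8% and 13.1% of all genes. Without control mouse 2 these counts were 4 and 0, without surgery mouse 2 they were 6 and 0, without surgery mouse 1 they were 9 and 0, and with the length and GC offset they were 1 and 0. The lists did not move as one. Among 9 assembly factors, including those that attach haem to the cytochromes, 1 was lower and 1 was higher, and the median log2 fold change was 0.11. *Uqcc2*, needed for the early assembly of cytochrome b, stood at 38.0 and 34.5 CPM in control mice and at 25.8 and 23.9 CPM in surgery mice. Its log2 fold change was -0.54 ± 0.10 (adjusted p = 0.012). *Lyrm7*, which stabilizes the Rieske protein before its insertion, stood at 7.14 and 7.60 CPM in control mice and at 11.6 and 11.7 CPM in surgery mice. Its log2 fold change was 0.66 ± 0.15 (adjusted p = 0.022). Neither passed with the offset, where the log2 fold change of *Uqcc2* was -0.23 (adjusted p = 0.23) and that of *Lyrm7* was 0.41 (adjusted p = 0.19). *Lyrm7* was also lost without any 1 of the mice, with log2 fold changes from 0.61 to 0.70 and adjusted p-values from 0.056 to 0.081, and by DESeq2's Wald test (0.64, adjusted p = 0.069).

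Of the 4 peptidases that remove presequences from imported subunits, only *Pmpca*, the alpha subunit of the processing peptidase, passed the test. It was lower by -0.35 ± 0.07 on the log2 scale (adjusted p = 0.017), a call lost without control mouse 2 (-0.30, adjusted p = 0.077), without surgery mouse 2 (-0.31, adjusted p = 0.068) and with the offset (-0.36, adjusted p = 0.062). The median of the list was 0.26. *Immp1l*, a subunit of the inner membrane peptidase, is named because it had an unadjusted p-value under 0.05 in the other direction. It stood at 10.3 and 7.17 CPM in control mice and at 13.5 and 13 CPM in surgery mice, with a log2 fold change of 0.60 ± 0.20 (adjusted p = 0.069). It passed as higher without control mouse 1, and the offset moved its log2 fold change to 0.02. Ubiquinone synthesis and handling had the largest share of lower genes, 6 of 13, beside 12.8% of all genes. Its median log2 fold change was -0.36. The list did not keep this rank without a filter on low counts or with the offset. *Coq7*, the hydroxylase of a late step, stood at 22.9 and 27.7 CPM in control mice and at 16.6 and 17.4 CPM in surgery mice (log2 fold change -0.58 ± 0.13, adjusted p = 0.022). *Coq9*, which presents lipid substrate to that enzyme, fell by 0.45 (adjusted p = 0.0099), *Coq6*, another hydroxylase, by 0.45 (adjusted p = 0.031), and *Coq8a*, an atypical kinase-like protein, by 0.43 (adjusted p = 0.010). No gene of this list was higher at an adjusted p-value by edgeR, DESeq2 or limma-voom, and 1 was higher at an unadjusted one. This was *Coq10b*, a ubiquinone-binding protein, named because of its value (0.53 ± 0.20 on the log2 scale, adjusted p = 0.099). The count of 6 was 2 without control mouse 2 or without a filter on low counts, 3 without surgery mouse 2, 4 without either of the other mice, by DESeq2's Wald test and with scaling by library totals, and 5 after thinning. Without control mouse 2 *Coq7* (-0.43, adjusted p = 0.098) and *Coq6* (-0.38, adjusted p = 0.14) no longer passed. Nor did *Coq6* pass without surgery mouse 1 (-0.42, adjusted p = 0.083) or surgery mouse 2 (-0.48, adjusted p = 0.068), with log2 fold changes close to that from all 4 mice. With the offset 0 of the 13 passed and the median was -0.16.

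Among 11 tested enzymes other than complex I that reduce ubiquinone, 2 subunits of complex II were lower. *Sdhd*, a membrane anchor, stood at 87.0 and 87.9 CPM in control mice and at 63.2 and 61.3 CPM in surgery mice. Its log2 fold change of -0.49 ± 0.07 (adjusted p = 0.0057) was the one nuclear call of these lists that remained with the offset, at -0.46 (adjusted p = 0.032). *Sdha*, the flavoprotein, fell by 0.29 ± 0.06 (adjusted p = 0.014), but the call was lost at a like size with the offset (-0.30, adjusted p = 0.059) and without control mouse 2 (-0.29, adjusted p = 0.053). *Etfb* did not pass the expression filter. Of the 8 partners of cytochrome c and of the contact between complexes III and IV, 0 passed by edgeR, DESeq2 or limma-voom, although 3 were lower at an unadjusted p-value under 0.05. The lowest p-values were those of *Higd1a*, a small factor of complexes III and IV (log2 fold change -0.27, adjusted p = 0.059, but -0.37 and 0.037 without surgery mouse 1), and *Chchd4*, the import oxidoreductase of the intermembrane space (-0.31, adjusted p = 0.066).

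Transcripts of the mitochondrial genome stood apart from all nuclear lists. Of 12 tested, 11 were higher in surgery mice, beside 13.1% of all genes, and 9 were higher DEGs, beside 6.75% of all genes (4.22% without control mouse 2 and 0.525% with the length and GC offset). The median of the list was 1.09 on the log2 scale. All 12 transcripts belong to the lowest of the 8 groups of GC content. In that group 51.3% of the genes were higher, and the median log2 fold change was 0.595. The largest rises were in *mt-Nd6* (144 and 109 CPM in control mice, 483 and 577 CPM in surgery mice, log2 fold change 2.06 ± 0.15), *mt-Nd3* (1.67 ± 0.36), *mt-Atp6* (1.30 ± 0.19), *mt-Co3* (1.18 ± 0.20) and, at the same rounded value, *mt-Nd2* (1.18 ± 0.11). Several of these rises rest on few counts for mitochondrial transcripts. Per mouse there were 16 to 79 counts of *mt-Nd3*, 133 to 394 of *mt-Atp6* and 298 to 804 of *mt-Co3*. *mt-Co2* had 530 to 1179, where *mt-Co1* had 212914 to 332510. *mt-Cytb* had the smallest log2 fold change of the 12, at 0.41. All counts of the mitochondrial genome together, rRNA included, made up 3.05% and 2.70% of the control libraries and 5.10% and 5.14% of the surgery libraries. Leaving these genes out before scaling changed no call among the 10 genes. With the length and GC offset the median of the 12 was 0.31 and 2 passed as higher, beside 0.945% of all genes. These were *mt-Nd6* (1.00, adjusted p = 0.022) and *mt-Co2* (0.51, adjusted p = 0.046), which is named because of this value. In the same fit *mt-Nd4* (-0.34), *mt-Cytb* (-0.17) and *mt-Nd5* (-0.13) turned negative without passing. *mt-Nd6* lies on the other strand from the remaining genes of the list, so without strand in the counting its reads cannot be told apart from those of the opposite strand, and reads shared with nuclear copies of mitochondrial sequence were not examined.

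**Figure D4:**
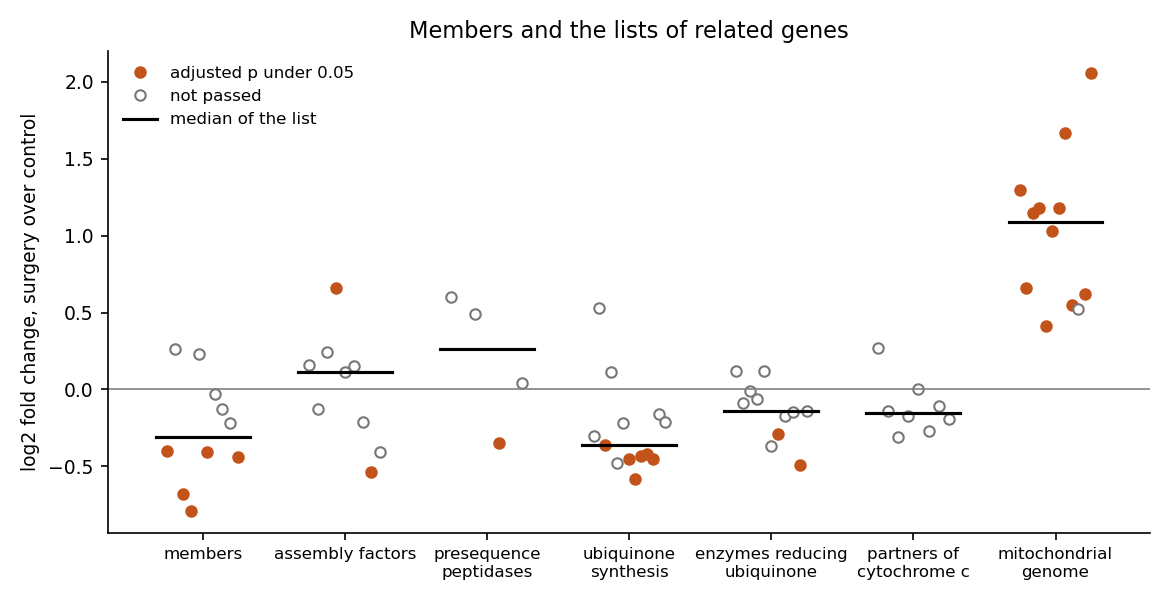
Log2 fold change of surgery over control mice for each gene of the 10 genes (left column, labelled members) and of 6 lists of related genes, where filled points passed at an adjusted p-value under 0.05 and the bar is the median of the list. The medians run from -0.36 for ubiquinone synthesis to 1.09 for the mitochondrial genome.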

How the data were processed

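Hippocampal RNA of 2 control and 2 surgery mice was sequenced as paired-end reads after oligo(dT) enrichment. The authors mapped the reads to mm10 with HISAT and deposited raw counts per gene and mouse in one table. The submitters' processing notes list HISAT2 2.1.0, HTSeq 0.6.0, Bowtie2 2.2.3 and TopHat2, without roles. Use of strand is not given in the sources used here. The deposited table also holds, as the authors' own comparison, a mean normalized signal, a fold change as a ratio, its log2 and p-values, which were not used. Every count column was matched to a mouse by name.

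The members and all gene lists were chosen with earlier results of these data known. All members and *mt-Cytb* are named, and from each list up to 4 genes that passed, by size of the log2 fold change, or the 2 with the lowest p-values where none passed. Genes sharing over 5% of a member's 75 nt windows are named.

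The counts were tested in R 4.3.3, mainly by edgeR 4.0.16 (filterByExpr at a minimum count of 10, TMM, glmQLFit without its legacy form, glmQLFTest, Benjamini-Hochberg adjustment over all genes tested, condition as the only term), limma 3.58.1 and DESeq2 1.42.0. The labels give no batch. Trends with the length and GC content of transcripts were fitted for each library with mgcv 1.9.3 (basis size 8) and entered as offsets. Lengths, GC content and shared windows came from GENCODE M21 on GRCm38, the assembly of mm10, in which 29238 of 29300 identifiers were found. 24 date-like symbols were restored from their identifiers. Gene coordinates are those of the deposited table. Replicates differed by more than counting noise, with a chi-square per degree of freedom of 14.6 between control mice and 9.19 between surgery mice. The procedures were tested on simulated data. Alternatives were other scalings, filters and tests, leaving out each mouse, the replicate number as a block, the offset, thinning to the smallest library, and leaving out mitochondrial genes.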

Additional observations from a re-analysis of the deposited data

How the results depend on the processing

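The 5 calls among the 10 genes held in number under 5 other scalings, filters or tests (library totals, DESeq2 size factors, upper-quartile scaling, a mean of at least 1 CPM, limma-voom), by DESeq2's Wald test, after thinning and without mitochondrial genes. With the length and GC offset, lower genes among the 10 numbered 0, lower DEGs 0, lower and higher genes of the nuclear lists 1 and 0, 102 genes in place of 2201 were lower and 162 in place of 2249 were higher across all genes, and the median log2 fold change of the 10 was -0.19. That offset turned *mt-Cytb* to -0.17, *Uqcrb* to -0.16 and *Cycs* to -0.19, and scaling by library totals turned *Uqcrc2* to 0.02. Without a filter on low counts 4 of the 10 genes passed, the nuclear lists had 6 lower genes, and 1350 genes were lower and 1315 higher among 29300 tested. DESeq2's Wald test called 0 higher genes in the nuclear lists. The cause of these shifts was not tested.

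Leaving out each mouse in turn gave 4 to 6 lower genes and 2 to 3 lower DEGs among the 10, a median log2 fold change from -0.39 to -0.21, 4 to 9 lower and 0 to 1 higher genes in the nuclear lists, and 1207 (without control mouse 2) to 2080 lower genes in the whole table, with 1347 without surgery mouse 2. Higher genes in the whole table numbered 1201 without control mouse 2 and 1586 without surgery mouse 2. *Uqcrc2* ranged from -0.09 to 0.02, the latter without control mouse 2. In these fits the lone mouse of a group is assumed to vary like the others.

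The labels number the mice of both groups 1 and 2 but do not say that a number marks a shared litter or day. The deviations of same-numbered mice correlated at 0.224 over 17144 genes, which with 2 pairs does not establish a pairing. With the replicate number as a block the 10 genes had 5 lower genes and 2 lower DEGs, and *Cycs* passed as higher (0.25, adjusted p = 0.027). Across all 17144 genes in that fit 2626 were lower, 2653 (15.5%) were higher and 2.49% were lower DEGs. *Higd1a* passed as lower (-0.28, adjusted p = 0.039), and the nuclear lists had 12 lower and 3 higher genes (*Lyrm7*, *Coq10b* and *Immp1l*). With the block and the length and GC offset together, 4 of the 10 genes were lower (*Uqcr11*, *Uqcr10*, *Uqcrq* and *Uqcrc2*), 0 were lower DEGs, the median was -0.20, the nuclear lists had 6 lower and 0 higher genes, 1079 genes were lower in the whole table, and *mt-Cytb* (-0.17, adjusted p = 0.085), *Uqcrb* (-0.16) and *Cycs* (-0.19) turned as without the block.

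Counting noise weighs most on *Uqcrb*, which had 284 to 327 counts per mouse and the largest standard error of the 10 genes, 0.12.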
